A study of Mus musculus with 10 samples.

Results

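The genes described here are 36 that cells use to charge tRNA and to make or import amino acids, among 31659 genes named on the array: 20 cytosolic aminoacyl-tRNA synthetase genes, 9 enzymes of amino acid synthesis and 7 amino acid transporters. They were found by their gene name on probes that are not control spots, 45 probes in all, and each of the 36 passed the filter on dim probes among 24144 genes tested. Liver RNA came from female C57BL/6 mice aged 8 weeks, fasted for 24 h and then injected intraperitoneally with acetaminophen at 350 mg/kg in phosphate-buffered saline, or with the saline alone in the control mice, and killed 3, 8, 24, 48 or 72 h later. Each of 10 two-colour arrays carried 1 acetaminophen-treated liver in the Cy5 dye and 1 control liver in the Cy3 dye, with 2 arrays for each of 5 times and different numbered mice on both arrays of a time. Every array had the same dye orientation, so at a single time a dye effect cannot be told apart from the treatment, while a dye effect common to all arrays cancels in differences between times.

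Aminoacyl-tRNA synthetases join each amino acid to its tRNA and so set the supply for translation. When amino acids run short or other stresses block the initiation factor eIF2, the transcription factor ATF4 is translated and binds C/EBP-ATF response elements, turning on genes for amino acid synthesis, transport and tRNA charging. In the liver, acetaminophen overdose kills hepatocytes around the central veins through a reactive metabolite that consumes glutathione, itself built from amino acids, and surviving hepatocytes later re-enter growth.

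Synthesis and transport genes were called mainly at 8 and 48 h, and synthetases mainly at 48 h. At 8 h, 6 of the 16 synthesis and transport genes rose, led by Psat1 (log2 ratio of treated over control 2.63 ± 0.39, SE, n = 2 arrays as for every ratio below) and Asns (2.04 ± 0.44), while 3 of the 20 synthetases rose. Each SE is limma's, from a spread shared by all 5 times and moderated across genes. It is thus the same for a gene at every time and is not the spread of the 2 arrays. At 48 h, 11 of the 20 synthetases rose, led by Iars (1.26 ± 0.21), Gars (0.89 ± 0.14) and Tars (0.79 ± 0.19), beside 5 of the 16 synthesis and transport genes. In the opposite direction the serine hydroxymethyltransferase genes Shmt1 and Shmt2 fell at 24 and 48 h. At 72 h no gene of the 36 was called. Whether the 2 groups of genes differ in their timing was not tested as such, and the tests of each gene between times are given further on.

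The share of genes called differed widely between times, and the counts of members are to be read against it. A call is an adjusted p (limma, Benjamini-Hochberg over all 24144 genes) under 0.05. Among all genes 7.41% were called at 3 h, with 3.34% rising and 4.07% falling, against 1 of 20 synthetases rising and 1 falling and 2 of 16 amino acid genes rising and 0 falling. At 8 h 12.9% of all genes were called, 5.31% up and 7.55% down, against 3 synthetases up and 2 down (15% and 10%) and 6 amino acid genes up and 1 down (37.5% and 6.25%). At 24 h the shares of all genes were 10.8%, 3.76% and 7.05%, against 2 synthetases up and 2 down and 2 amino acid genes up and 2 down. At 48 h they were 31.3%, 17.9% and 13.4%, against 11 synthetases up and 2 down (55% and 10%) and 5 amino acid genes up and 3 down (31.2% and 18.8%). At 72 h 0% of all genes passed. At an unadjusted p under 0.05 there were 766 genes at that time, 1 of them a member (Shmt2). The median of all genes ran from -0.01 to 0.00 over the 5 times. From 3 to 72 h the synthetase medians were -0.10, 0.06, -0.07, 0.45 and -0.09, and those of the amino acid genes were 0.32, 0.36, 0.12, 0.13 and 0.03.

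**Figure D1:**
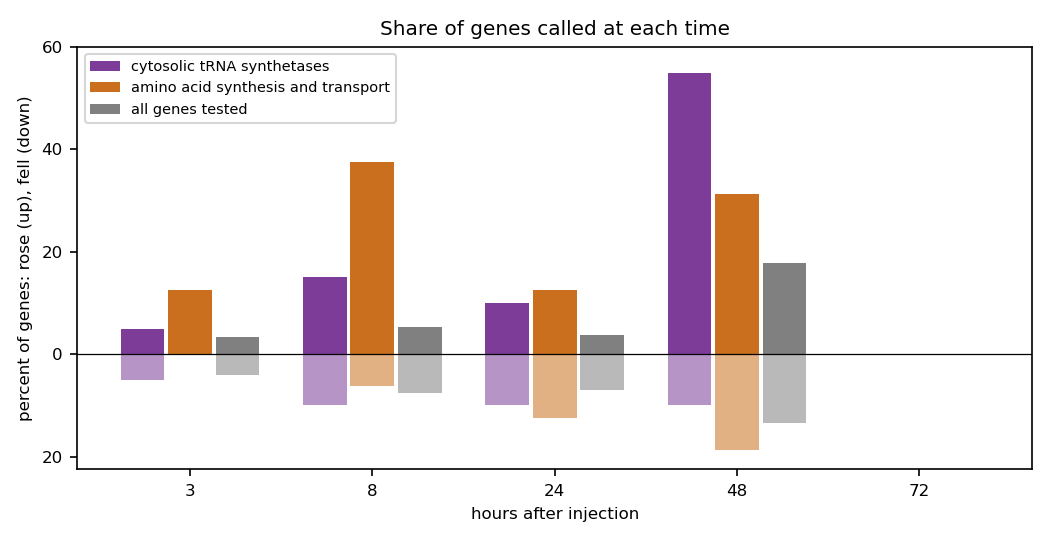
Percent of genes that rose (solid bars above 0) or fell (pale bars below 0) in treated over control livers, by hours after injection, for the 20 synthetases, the 16 amino acid genes and all 24144 genes tested. The amino acid genes have their tallest bar at 8 h (37.5%) and the synthetases at 48 h (55%), and at 72 h there are no bars.

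At each of the 4 times with calls, a count of members rested on a single array. Without the replicate 1 array at 3 h no synthetase was called there, and without either 3 h array 1 amino acid gene was. Without the replicate 3 array at 24 h 2 genes of each kind were called, and for synthetases this was also so without either 72 h array. Without the replicate 2 array at 8 h, 0 synthetases and 0 amino acid genes were called there, and the calls among all genes dropped to 209 rising and 208 falling. Without the replicate 3 array at 48 h, 4 synthetases rose and 0 fell, and 2 amino acid genes rose and 2 fell. The 4 synthetases called without it were Gars, Hars, Iars and Farsb. With 1 array left at a time, its spread is taken from the other times. At 3, 24 and 48 h fewer of all genes were called too without these arrays, so the drops were not limited to the members. Slide was a batch too, since 4 slides held the 10 arrays and each held more than 1 time. With slide as a block, 2 synthetases rose and 1 fell at 48 h (9.38% and 5.75% of all genes), 2 rose at 24 h (1.8%) and none was called at 3 or 8 h. The amino acid genes then had 2 rising at 3 h (0.737% of all genes) and at 8 h (2.44%), 2 falling at 24 h (4.41%), and 1 rising and 1 falling at 48 h. The direction was shared more widely than the calls. At 48 h 15 and 16 of the 20 synthetases were above 0 on the 2 arrays, which were scanned on different days, with medians of 0.32 and 0.49. At 8 h 13 and 12 of the 16 amino acid genes were above 0, with medians of 0.45 and 0.34.

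The scaling of the arrays moved these counts. Centring each array on its median, without the intensity-dependent loess, moved the median of all genes to -0.24 at 3 h and -0.18 at 8 h. Relative to that shift the synthetase medians from 3 to 48 h were -0.76, -0.35, -0.48 and 0.77, so that the direction turned at 8 h, and that of the amino acid genes was 0.36, 0.30, 0.11 and 0.25. The synthetase calls became 0 up and 8 down at 3 h, 0 up and 1 down at 8 h, 0 and 0 at 24 h, and 1 up and 0 down at 48 h, and those of the amino acid genes 2 up and 2 down, 3 up and 0 down, 0 up and 2 down, and 2 up and 0 down. Of all genes 4.35% were then up and 21% down at 3 h, 0.679% and 9.85% at 8 h, 0.108% and 3.02% at 24 h, and 10.5% and 1.58% at 48 h. With the scanner software's own ratio, whose all-gene median at 48 h was -0.11, the synthetase calls at 48 h were 5 up and 1 down and those of the amino acid genes 8 up and 3 down, against 14.4% of all genes up and 14.2% down.

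**Figure D2:**
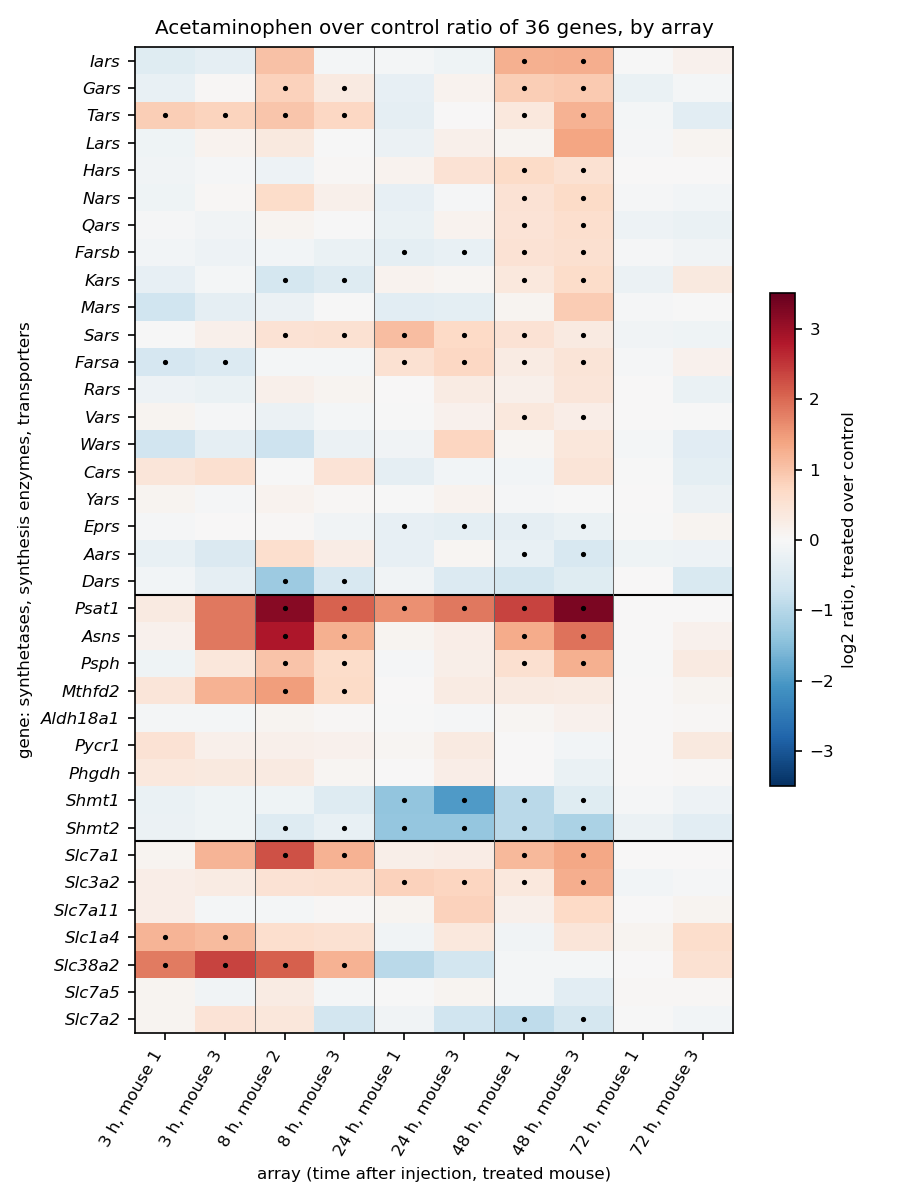
Log2 ratio of treated over control (colour, red higher in treated) of each of the 36 genes (rows, in 3 blocks sorted by the 48 h mean) on each of the 10 arrays (columns, by time and treated mouse number). A dot marks both arrays of a time at which the gene was called. Psat1 is red on both arrays at 8, 24 and 48 h, Shmt1 and Shmt2 are blue on both at 24 and 48 h, and 15 and 16 of the 20 synthetases are above 0 in the 48 h columns.

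The start regions of the members were examined for the 2 elements tied to these responses. RefSeq promoters (GRCm38.p6, 250 bases before to 50 after each start) were at hand for 27 of the 36 genes. The C/EBP-ATF response element core TGATGNAA, searched on both strands, was found in 9 of the 27 (33.3%): 5 of 13 synthetases (Aars, Gars, Iars, Tars and Yars) and 4 of 14 amino acid genes (Asns, Pycr1, Slc7a11 and Slc1a4). Of 27025 genes with a promoter in the same table, 4.51% held it. The antioxidant response element core TGACNNNGC was found in 8 of the 27 (29.6%: Aars, Iars, Mars, Asns, Phgdh, Psph, Slc7a1 and Slc38a2), against 14% of all genes. The 2 motifs share no base in any member. A match is a string of letters and not evidence of binding.

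Below are 60-base windows around the TGATGNAA matches of the members that were called at some time, largest change first, shown to place the element beside the start site. Each reads 5′ to 3′ along the gene, with the match in capitals; where the match lies on the opposite strand it reads TTNCATCA.
Asns chr6:7693199-7693258 (minus strand): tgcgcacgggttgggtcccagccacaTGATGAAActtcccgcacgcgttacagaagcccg
Iars chr13:49682100-49682159 (plus strand): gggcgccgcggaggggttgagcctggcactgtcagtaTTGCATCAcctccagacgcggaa
Slc1a4 chr11:20332684-20332743 (minus strand): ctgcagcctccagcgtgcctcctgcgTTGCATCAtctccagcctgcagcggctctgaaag
Gars chr6:55037945-55038004 (plus strand): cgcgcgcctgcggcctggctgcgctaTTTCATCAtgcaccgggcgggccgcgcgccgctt
Tars chr15:11399640-11399699 (minus strand): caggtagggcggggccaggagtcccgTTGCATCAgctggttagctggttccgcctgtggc
Aars chr8:111033704-111033763 (plus strand): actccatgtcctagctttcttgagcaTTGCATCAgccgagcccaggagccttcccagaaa

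The first base of the match lies 23 bases before the start in Asns, 4 before it in Slc1a4, 30 before it in Gars, 15 before it in Tars and 112 before it in Aars, and is base 8 after the start in Iars. Aars has a second match whose first base is base 10 after its start. Of these 6 genes, 5 rose at some time and Aars fell. Psat1, which changed most, has no match in its promoter, and Slc7a11 and Yars, which have matches, were never called.

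For the antioxidant element, the windows of the 3 members with the largest changes are given in the same way. Matches are also held by Iars and Psph, which rose at some time, and by Aars, which fell. Mars and Phgdh have matches too and were never called. A match on the opposite strand reads GCNNNGTCA.
Slc38a2 chr15:96699722-96699781 (minus strand): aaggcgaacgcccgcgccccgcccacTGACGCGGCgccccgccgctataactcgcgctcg
Asns chr6:7693348-7693407 (minus strand): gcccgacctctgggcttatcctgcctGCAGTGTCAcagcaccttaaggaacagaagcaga
Slc7a1 chr5:148399882-148399941 (minus strand): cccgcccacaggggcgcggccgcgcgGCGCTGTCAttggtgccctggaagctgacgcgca

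Psat1 had the largest rise, and the synthesis enzymes are given first, each with its normalized intensity per liver, on a linear scale that includes the added offset of 50 and is comparable within a gene only. Psat1 encodes phosphoserine aminotransferase of the serine pathway (probe at chr19:15979622-15979681, mm9). At 8 h its intensity was 947 and 632 in acetaminophen livers, against 105 and 149.9 in control livers. At 24 h it was 800.1 and 1306 in acetaminophen livers, against 265 and 367 in control livers, and at 48 h 1161 and 1365, against 225 and 139. The treated livers lay above the control livers without overlap at all 3 times. The log2 ratios were 2.63 ± 0.39 (adjusted p in limma = 0.0054), 1.71 ± 0.39 (0.027) and 2.83 ± 0.39 (0.0013). Without the replicate 2 array the 8 h value was 2.08 and not called, and the 24 h value was not called without either of its arrays. At 3 h one array stood at 0.31 and the other at 1.84, which was not called, and at 72 h the probe was not well above background in either group. The control livers themselves spanned 1.57 on the log2 scale between their lowest mean, at 3 h, and their highest, at 24 h (limma F test, adjusted p = 0.060).

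Asns encodes asparagine synthetase, a textbook ATF4 target with the element printed above (probe at chr6:7625171-7625228, mm9). Its intensity at 8 h was 780.1 and 519 in acetaminophen livers, against 109.5 and 219 in control livers. At 48 h it was 434 and 448 in acetaminophen livers, against 176 and 121 in control livers, and at 24 h 182 and 243, against 171 and 206. Treated livers were higher without overlap at 8 and 48 h, whereas at 24 h the groups overlapped. The ratios were 2.04 ± 0.44 at 8 h (adjusted p in limma = 0.022), 1.60 ± 0.44 at 48 h (0.026) and 0.16 ± 0.44 at 24 h (0.92). Without the replicate 2 array the 8 h ratio was 1.24 and not called, and the 48 h ratio was not called without either of its arrays. Tested directly, the differences from 8 to 24 h (-1.87, adjusted p in limma = 0.13) and from 24 to 48 h (1.43, 0.19) did not pass. At 3 h the 2 arrays disagreed in size, 0.16 and 1.85.

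Psph, the phosphatase that completes serine synthesis, rose at 8 h (0.82 ± 0.19, adjusted p in limma = 0.031) and at 48 h (0.91 ± 0.19, 0.0097), with 0.09 ± 0.19 between them at 24 h. Without the replicate 3 array its 48 h value was 0.57 and not called, and its 8 h call was lost without either array. Mthfd2, a mitochondrial folate enzyme that takes up the carbon released from serine, rose at 8 h (1.07 ± 0.22, 0.019) with 1.47 and 0.67 on its 2 arrays, and without the first of these was not called. Phgdh, the first enzyme of the same serine pathway, was never called, and its ratio ran between -0.12 at 48 h and 0.35 at 3 h. The proline synthesis genes Pycr1 and Aldh18a1 were not called either. The ratio of Pycr1 lay between -0.04 and 0.35. Aldh18a1 was above background on both arrays of a time only in treated livers at 48 h, and passed the filter through them alone. Its ratio there was 0.11 ± 0.06 (adjusted p in limma = 0.23).

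Shmt1 and Shmt2, the cytosolic and mitochondrial enzymes that interconvert serine and glycine, fell. Shmt2 had an intensity of 743 and 615 in acetaminophen livers at 24 h, against 1899 and 1567 in control livers. At 48 h it had 815 and 767 in acetaminophen livers, against 1559 and 1663 in control livers. The groups did not overlap at either time. The log2 ratios were -1.35 ± 0.08 at 24 h (adjusted p in limma = 1.0e-04) and -1.03 ± 0.08 at 48 h (1.5e-04), after a smaller fall of -0.35 ± 0.08 at 8 h (0.029). Shmt1 had 587 and 284 in acetaminophen livers at 24 h, against 1532 and 1119 in control livers, a log2 ratio of -1.68 ± 0.16 (6.7e-04), and it stood at -0.68 ± 0.16 (0.016) at 48 h. Without the replicate 1 array at 48 h the 48 h value was -0.43 and not called. Under median centring Shmt1 stood at -0.33 and Shmt2 at -0.54 at 48 h, neither called, while both kept their calls at 24 h. Shmt1 was 1 of 2 members that also differed over time in control livers, where its level was lowest at 48 h and highest at 24 h, a span of 1.17 (limma F test, adjusted p = 0.036). In the main fit the control level thus moved as well as the treated one, but with slide as a block no member passed this test in control livers.

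The value of some genes depended on the probe. The second, dimmer probe of Psat1 (chr19:15991586-15991645, mm9) gave 0.51 at 8 h, 0.14 at 24 h and 0.33 at 48 h, the same direction as the brighter probe at all 3 times. Of these only the 8 h value was called when probes were tested one by one (limma, adjusted p = 0.030). The second probe of Shmt1 (chr11:60620453-60620512, mm9) gave -0.34 at 24 h (adjusted p in limma = 0.087) and -0.30 at 48 h (0.065). The dimmer probes of Farsa (0.15 at 24 h) and Psph (0.36 at 48 h, adjusted p = 0.026) also gave smaller values than the probes used. Which transcript parts these probes read was not analysed here.

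**Figure D3:**
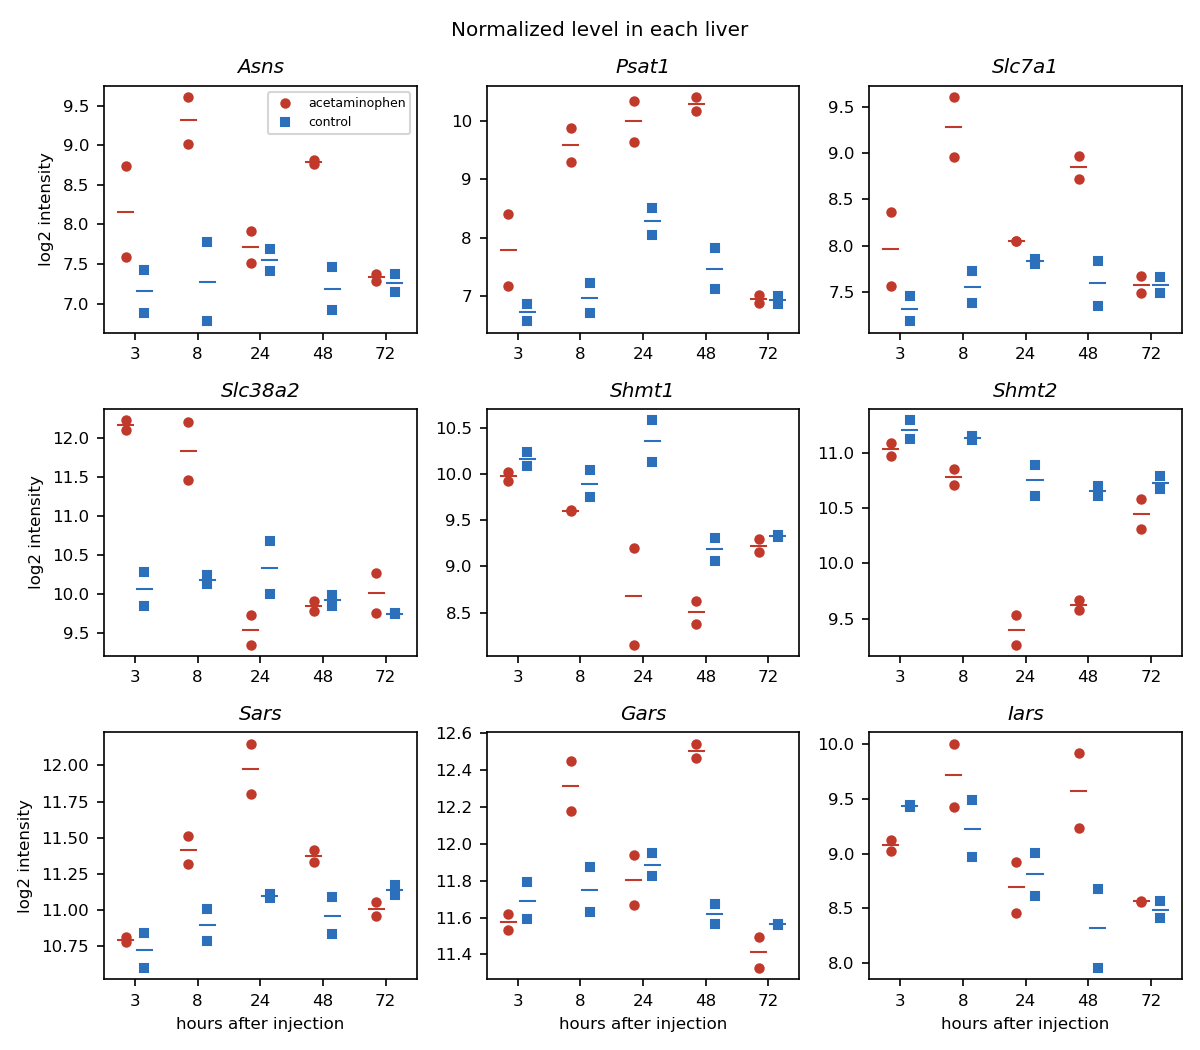
Normalized log2 intensity of 9 genes in each liver (points) by hours after injection, acetaminophen livers as red circles left of control livers as blue squares, with a short line at each mean of 2. Psat1, Asns and Slc7a1 show treated livers above control livers at 8 and 48 h, Slc38a2 at 3 and 8 h, and Shmt2 shows treated livers about 1 log2 unit below control livers at 24 and 48 h. Vertical scales differ between genes.

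Of the transporters, Slc38a2, the sodium-coupled neutral amino acid carrier SNAT2 that cells raise when amino acids are scarce, had the largest rise. Its intensity at 3 h was 4414.5 and 4809 in acetaminophen livers, against 1245 and 928 in control livers. At 8 h it was 4746 and 2835 in acetaminophen livers, against 1119 and 1216 in control livers, and at 24 h 857 and 656, against 1641 and 1027. Treated livers were thus above all controls at 3 and 8 h and below them at 24 h. It rose by 2.10 ± 0.22 at 3 h (adjusted p in limma = 0.0024) and 1.65 ± 0.22 at 8 h (0.0038), and the value at 24 h, -0.79 ± 0.22, did not pass (0.063). Slc1a4, a carrier of alanine, serine and cysteine, rose at 3 h (1.16 ± 0.17, adjusted p in limma = 0.0086). Under median centring that value was 0.07, and without either of its 2 arrays it was not called. Median centring also took Slc38a2 to 0.98 at 3 h and 0.95 at 8 h, where it was not called, and without the replicate 2 array it stood at 1.22 at 8 h and was not called.

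Slc7a1, the cationic amino acid carrier CAT1, had 777 and 496 in acetaminophen livers at 8 h, against 167 and 213 in control livers. At 48 h it had 502 and 421 in acetaminophen livers, against 228 and 164 in control livers. Both times were without overlap and were called, at 1.72 ± 0.27 (adjusted p in limma = 0.0074) and 1.25 ± 0.27 (0.011). The 8 h call was lost without the replicate 2 array (1.22) and the 48 h call without the replicate 3 array (1.14). At 24 h it stood at 0.22 ± 0.27. Slc7a2, the carrier CAT2 that supplies arginine in liver, went the other way and fell at 48 h (-0.75 ± 0.23, 0.043), and was the second member that differed over time in control livers (F test, adjusted p = 0.049), with a span of 1.33. Its fall was not called without either of the 48 h arrays.

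Slc3a2, the heavy chain shared by several exchangers, rose at 24 h (0.78 ± 0.17, adjusted p in limma = 0.024) and 48 h (0.82 ± 0.17, 0.0088). The 24 h call was lost without either of its arrays, and without the replicate 3 array the 48 h value was 0.37 and still called. Its light chain partners Slc7a5 and Slc7a11 were not called at any time. Slc7a5, the carrier LAT1 of large neutral amino acids, lay between -0.21 and 0.11, although a dimmer second probe stood at 0.49 at 8 h (adjusted p = 0.020 in the fit of single probes). Slc7a11, the cystine carrier that feeds glutathione synthesis, was not well above background in any control liver. It was above background in both treated livers at 24 and 48 h, and passed the filter through these alone. Its ratios there were 0.45 ± 0.18 and 0.44 ± 0.18, neither called (limma, adjusted p = 0.19 and 0.11). The 2 arrays stood at 0.10 and 0.81 at 24 h and at 0.16 and 0.71 at 48 h. With a dim control channel such ratios are open to dye bias.

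Turning to the synthetases, the isoleucyl enzyme gene Iars had an intensity at 48 h of 964 and 603 in acetaminophen livers, against 409 and 248 in control livers. Gars, for glycine, had 5974 and 5665 in acetaminophen livers, against 3269.8 and 3025 in control livers. Tars, for threonine, had 1265 and 2140.4 in acetaminophen livers, against 986 and 922 in control livers. In all 3 genes both treated livers exceeded both control livers. For Iars the rise was 1.26 ± 0.21 (adjusted p in limma = 0.0032), for Gars 0.89 ± 0.14 (0.0030) and for Tars 0.79 ± 0.19 (0.016). Without the replicate 3 array Tars stood at 0.36 and was not called. The other synthetases that rose at 48 h were those for histidine (Hars, 0.60 ± 0.10), asparagine (Nars, 0.59 ± 0.12), glutamine (Qars, 0.53 ± 0.09), lysine (Kars, 0.50 ± 0.14), serine (Sars, 0.41 ± 0.10) and valine (Vars, 0.29 ± 0.08), and both subunits of the phenylalanyl enzyme (Farsb, 0.53 ± 0.07, and Farsa, 0.36 ± 0.08). With slide as a block only Gars (0.66) and Farsb (0.48) of these 11 were called at 48 h. Iars then stood at 1.00 (adjusted p in limma = 0.0535) and Tars at 0.64 (0.164).

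Against this direction, Aars, for alanine, fell at 48 h (-0.42 ± 0.13, adjusted p in limma = 0.041), as did Eprs, the joint enzyme for glutamate and proline (-0.27 ± 0.07, 0.023). Neither was called at 48 h without one or the other of that time's arrays, and both values changed sign under median centring, to 0.19 and 0.06. Eprs also fell at 24 h (-0.31 ± 0.07, 0.029), with overlapping channel levels of 458 and 335 in acetaminophen livers, against 560.0 and 421 in control livers. Dars, for aspartate, fell at 8 h (-0.92 ± 0.19, 0.019) with -1.28 and -0.57 on its 2 arrays, and Kars fell at 8 h (-0.53 ± 0.14, 0.040) before its rise at 48 h.

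A few synthetases moved outside 48 h. Sars, for serine, had 4549 and 3574 in acetaminophen livers at 24 h, against 2164 and 2208 in control livers, with no overlap. It rose by 0.88 ± 0.10 at 24 h (adjusted p in limma = 0.0013) and by 0.52 ± 0.10 at 8 h (0.016), so that it was called at 8, 24 and 48 h. Tars rose by 0.82 ± 0.19 at 3 h (0.040) and 0.86 ± 0.19 at 8 h (0.024), and Gars by 0.56 ± 0.14 at 8 h (0.043). Under median centring the values of Tars at 3 h, Gars at 8 h and Sars at 8 h changed sign to -0.28, -0.16 and -0.19. Farsa fell at 3 h (-0.54 ± 0.08, 0.011) and rose at 24 h (0.63 ± 0.08, 0.0026), while its partner subunit Farsb fell at 24 h (-0.30 ± 0.07, 0.0275). Median centring left Sars at 0.19 and Farsa at 0.10 at 24 h, neither called, and without the replicate 1 array at 3 h no synthetase was called at that time.

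The remaining 6 synthetases were called at no time. They are those for cysteine (Cars), leucine (Lars), methionine (Mars), arginine (Rars), tryptophan (Wars) and tyrosine (Yars). At 48 h Lars had 0.09 and 1.39 on its 2 arrays and Mars 0.10 and 0.88, means of 0.74 ± 0.26 (adjusted p in limma = 0.068) and 0.49 ± 0.17 (0.064). Wars, known as a target of interferon gamma, ranged from -0.50 at 3 h to 0.32 at 24 h, and its dimmer second probe stood at -0.34 at 3 h (adjusted p = 0.048 in the limma fit of single probes). Yars stayed between -0.10 and 0.08 and was not well above background in every liver. In all, 11 members were never called, 10 were called at 1 time, 10 at 2 times and 5 at 3 times, and none at more.

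**Figure D4:**
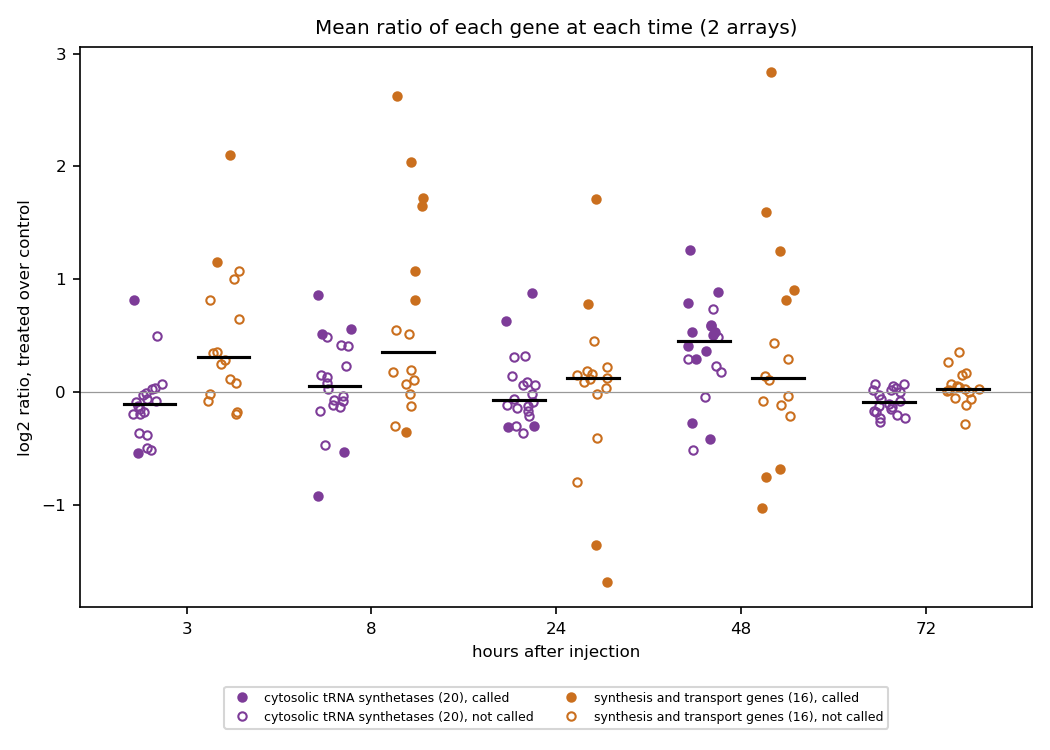
Mean log2 ratio of treated over control of each gene (points, 2 arrays each) by hours after injection, synthetases in purple left of amino acid synthesis and transport genes in orange. Filled points were called and black lines are the medians of each list, -0.10, 0.06, -0.07, 0.45 and -0.09 for synthetases and 0.32, 0.36, 0.12, 0.13 and 0.03 for the other genes.

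Differences in the ratio between neighbouring times were tested directly, which removes any constant dye effect. From 3 to 8 h none of the 36 members passed in limma (0.795% of all genes did, 0.514% higher and 0.282% lower at 8 h), while 11 (30.6%) had an unadjusted p under 0.05, as did 16.7% of all genes. From 8 to 24 h 4 members differed (6.2% of all genes, 2.41% higher and 3.79% lower at 24 h): Farsa was higher and Shmt1, Shmt2 and Slc38a2 were lower at 24 h. Without the replicate 2 array at 8 h or the replicate 3 array at 24 h, 2 members differed, and without the replicate 3 array at 8 h 6 did. From 24 to 48 h 6 members differed (10.4% of all genes, 7.75% higher and 2.63% lower at 48 h), all higher at 48 h, and 5 of them were synthetases, namely Gars, Iars, Nars, Qars and Farsb. The sixth was Shmt1. In control livers the mean log2 level of all 6 was lower at 48 h than at 24 h, and in treated livers that of the 5 synthetases was higher. For Iars it was 9.57 at 48 h and 8.69 at 24 h in acetaminophen livers, against 8.32 and 8.81 in control livers, and for Gars 12.51 and 11.80, against 11.62 and 11.89. For Shmt1 it was 8.50 and 8.67 in acetaminophen livers, against 9.18 and 10.35 in control livers. The control mean was lowest at 48 h for 11 of the 20 synthetases, a count for which the share of all genes was not taken. For none of the 20 did the F test over time pass in control livers. From 48 to 72 h 11 members differed (16.5% of all genes, 6.52% higher and 9.96% lower at 72 h). Of these, 8 were synthetases and all 8 were lower at 72 h, as were Psat1 and Slc3a2, while Shmt2 was higher. Without the replicate 3 array at 48 h 1 member differed from 24 to 48 h and 2 from 48 to 72 h, and without the replicate 1 array at 72 h 2 differed from 48 to 72 h. Median centring left 0 members in each of these comparisons. Slide as a block left 0 from 8 to 24 h, 0 from 24 to 48 h and 5 from 48 to 72 h. The shares of all genes between and over times were taken only in the main fit. Over all times the F test called 14 members (23.1% of all genes), 10 synthetases and 4 others, and without the replicate 1 array at 72 h 7, and with slide as a block 2. In treated livers alone it called 18 (18.8% of all genes), 9 of each kind, and in control livers alone 2 (3.52% of all genes), both amino acid genes, of which 0 were called with slide as a block. Without the replicate 2 array at 8 h the treated livers gave 10, and without either 3 h array, the replicate 3 array at 8 h, the replicate 1 array at 24 h or either 72 h array the control livers gave 0.

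Levels without overlap between the groups are counted here beside the same share of all genes. At 3 h both treated livers lay above both control livers for 2 synthetases and 10 amino acid genes (19.5% of all genes) and below them for 7 and 3 (24.1%). The 8 h counts were 7 and 8 above (20% of all genes) and 4 and 2 below (26%). The 24 h counts were 4 and 5 above (17%) and 3 and 4 below (17.7%). By 48 h there were 15 synthetases and 8 amino acid genes above (27%) and 4 and 4 below (25.3%), and 72 h had 0 and 2 above (8.93%) and 6 and 3 below (7.05%). Synthetases thus lay above control livers most often at 48 h, and Iars, Gars and Tars were among them.

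Relatives of these genes were compared as lists. Of all genes, 3.34%, 5.31%, 3.76% and 17.9% rose and 4.07%, 7.55%, 7.05% and 13.4% fell in order from 3 to 48 h. The counts of every list and marker set below are to be read against these shares. Of 23 tested regulators and targets of the ATF4 pathway, 11 rose and 0 fell at 3 h, 14 rose and 0 fell at 8 h, 5 rose and 1 fell at 24 h, and 13 rose and 2 fell at 48 h. At 72 h none was called, and 2 had an unadjusted p under 0.05 in limma. Their medians from 3 to 48 h were 0.63, 1.21, 0.18 and 0.40. The largest rises were those of the stress cytokine gene Gdf15 (4.69 ± 0.22 at 3 h), of Chac1, which degrades glutathione (4.45 ± 0.29 at 8 h), and of Trib3 (3.69 ± 0.21 at 8 h). The falls were those of Cth, which makes cysteine (-2.87 ± 0.15 at 24 h), and Vldlr (-1.25 ± 0.30 at 48 h). Atf4 itself, named after its values were seen, stood at 1.74, 1.70, 0.83 and 0.40 from 3 to 48 h, each called.

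Of 16 mitochondrial synthetases tested, 0 rose and 2, 4 and 2 fell at 3, 8 and 24 h, and 2 rose and 2 fell at 48 h. Their median at 48 h was 0.07, against 0.45 for the cytosolic enzymes. Iars2 rose (0.89 ± 0.12) and so did Cars2 (0.48 ± 0.13), both at 48 h, while Fars2 fell at 24 h (-0.81 ± 0.11), Rars2 at 8 h (-0.57 ± 0.15) and Hars2 most at 48 h (-0.55 ± 0.07). Of the 3 scaffold proteins of the multi-synthetase complex, Eef1e1 fell at 3 h (-0.78 ± 0.13) and rose at 48 h (0.54 ± 0.13), Aimp2 fell at 8 h (-0.95 ± 0.22) and rose at 24 h (1.32 ± 0.22), and Aimp1 was not called.

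Of 21 other amino acid transporters, 1 rose and 1 fell at 3 h and likewise at 8 h. Later 0 rose and 5 fell at 24 h, and 3 rose and 5 fell at 48 h. The largest falls were those of the glutamate carrier Slc1a2 (-3.47 ± 0.50 at 48 h) and the neutral amino acid carriers Slc38a4 (-3.09 ± 0.21 at 24 h) and Slc38a3 (-2.71 ± 0.21 at 48 h), relatives of Slc38a2. The rises were smaller, with the glycine carrier Slc6a9 at 0.93 ± 0.10 at 8 h and Slc43a2 at 0.67 ± 0.07 and Slc7a3 at 0.35 ± 0.11 at 48 h. Of 26 other enzymes of amino acid and folate metabolism, 5 rose and 2 fell at 3 h, and 2 rose and 4 fell at 8 h. Later 3 rose and 14 fell at 24 h, and 7 rose and 10 fell at 48 h. Glutamine synthetase, Glul, fell by 3.94 on the log2 scale at 48 h, the proline oxidase gene Prodh by 3.49 at 48 h and Gls2 by 3.37 at 24 h. The transaminase genes Got1 at 3 h (1.83 ± 0.34) and Gpt2 at 48 h (1.74 ± 0.09) were among the largest rises.

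Markers of several cell types moved over the same times. Hepatocyte markers were bright in every liver, and 9 of them were measured on all arrays. Their sums at 3 h were 568160 to 621050 in acetaminophen livers, against 381140 to 400630 in control livers, with 1 of 10 rising, and at 8 h 515630 to 541960, against 400220 to 405270, with 2 rising and 1 falling. Then 6 of 10 fell at 24 h and 7 of 10 at 48 h, and the sums at 24 h were 297030 to 414350 in acetaminophen livers, against 493130 to 620630 in control livers. At 48 h the sums were 301190 to 381290 in acetaminophen livers, against 553620 to 638340 in control livers. Kupffer cell markers summed to 12941 to 17330 in acetaminophen livers at 48 h, against 3917.8 to 4081.6 in control livers, with 2 of 8 rising, Marco and C1qa. Their log2 ratios at 48 h ran from 0.02 to 3.76 with a median of 0.62, and a sum is weighted towards the brightest genes. Of 7 recruited macrophage markers tested 4 rose at 48 h, and of 6 neutrophil markers 2 rose at 24 h, and 4 rose and 1 fell at 48 h. The neutrophil sums were 27714 to 43628 in acetaminophen livers at 24 h, against 15932 to 21117 in control livers, and they overlapped at 48 h, 23351 to 30039 against 26306 to 28731. In such whole-liver RNA, fewer cells of a type and less RNA per cell cannot be told apart, and the part of these cells in the members' values was not tested.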

How the data were processed

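Spot intensities from the Agilent scanner files, as deposited, were read from 10 two-colour arrays of whole-liver RNA. Per the file headers they were extracted with Agilent Feature Extraction 10.7.3.1, which also wrote a background-corrected, dye-normalized log10 ratio for each spot. The authors' deposited value table, treated as a score since its scale is not given in the sources used here, equalled 1.44 times that log10 ratio on every array, with a median of 0.

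Mean and background signals were corrected with normexp (offset 50) and normalized by loess within each array in limma 3.58.1 under R 4.3.3, with 1377 control spots and 2718 outlier spots over all arrays at weight 0. Channel levels were then set by Aquantile. After a filter on dim probes, 29659 of 39429 probes remained, and each gene was represented by its brightest probe. A coefficient per time was fitted on all 10 arrays, with two-sided p-values adjusted by Benjamini-Hochberg over 24144 genes. Differences between times and F tests over time used the same values. With 2 arrays at each time the number of arrays limits the precision. The p-values rest on the spread between arrays of the same time, pooled over the 5 times and moderated across genes. The arrays of a time differed in mice, scan day and slide, so that spread mixes these.

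The 36 members and all lists were chosen with earlier results of these data known. Every member was described, and of each other list up to 3 called genes in each direction with the largest changes were named, except 1 that is not reported here. Scripts were tested on simulated data. Alternatives were background correction, normalization, probe filter, probe rule, intensity trend, replicate number, scan day and slide as blocks, and leaving out each array. Promoters came from RefSeq (GRCm38.p6) and probe positions (mm9) from the scanner files.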

Additional observations from a re-analysis of the deposited data

Results flagged for a closer look

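The following differences between neighbouring times passed limma's test of the difference itself, on the log2 scale as later minus earlier. From 8 to 24 h the difference was 0.70 for Farsa, -1.39 for Shmt1, -1.001 for Shmt2 and -2.45 for Slc38a2. From 24 to 48 h it was 0.97 for Gars, 1.38 for Iars, 0.76 for Nars, 0.59 for Qars, 0.83 for Farsb and 1.00 for Shmt1. From 48 to 72 h it was -1.04 for Gars, -0.58 for Hars, -1.18 for Iars, -0.65 for Nars, -0.74 for Qars, -0.55 for Sars, -1.01 for Tars, -0.61 for Farsb, -2.82 for Psat1, 0.75 for Shmt2 and -0.87 for Slc3a2.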

How the results depend on the processing

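With 2 arrays at each time, several counts depended on single arrays and on the normalization, and the cause was not tested. The calls among all genes also moved with the setting and with the array left out. Pairs of percentages in brackets are the shares of all genes that rose and fell. For median centring and slide as a block they are given above. For counts between times, over times and in control or treated livers they were taken only in the main fit. Median centring gave 8, 1, 0 and 1 called synthetases at 3, 8, 24 and 48 h and 4, 3, 2 and 2 amino acid genes, 0 members between neighbouring times and 0 over time, and it turned Tars at 3 h to -0.28, Gars and Sars at 8 h to -0.16 and -0.19, and Aars and Eprs at 48 h to 0.19 and 0.055. The authors' table, once rescaled, is the software ratio itself, so they are not separate checks. Both gave 2 synthetases at 8 h (4.31% and 5.27%), 2 at 24 h (6.99% and 10.5%) and 6 at 48 h (14.4% and 14.2%). They also gave 8 amino acid genes at 24 h, 7 members from 8 to 24 h and 2 from 24 to 48 h. An offset of 0 gave 3 synthetases at 8 h (4.04% and 4.78%), 2 at 24 h (3.06% and 5.73%) and 7 at 48 h (14.5% and 11.1%). It also gave 5 amino acid genes at 3 h (4.03% and 4.72%), 2 members from 24 to 48 h, 7 from 48 to 72 h and 0 in control livers. No background correction gave 1 synthetase at 3 h (2.49% and 2.95%), 8 members from 8 to 24 h and 0 in control livers. Without the probe filter there was 1 synthetase at 3 h (2.39% and 2.91%), 3 at 8 h (3.66% and 5.21%) and 0 members in control livers. A filter for signal on all arrays, which tested 26 members, gave 2 synthetases at 24 h (8.01% and 15%). It gave 3 amino acid genes at 8 h (9.9% and 14.7%) and 4 at 48 h (27.1% and 22.9%). That filter left 8 amino acid genes, without Psat1, Asns, Psph, Mthfd2 and Slc7a1. Their medians from 3 to 48 h were 0.27, 0.14, -0.18 and -0.14. At 24 and at 48 h 1 rose and 3 fell, against 8.01% and 27.1% of all genes rising and 15% and 22.9% falling. An intensity trend gave 3 synthetases at 8 h (5.18% and 6.93%) and 2 at 24 h (3.48% and 6.57%). Scan day as a block gave 1 at 3 h (3.41% and 4.11%). Slide as a block gave 0, 0, 2 and 3 synthetases and 2 amino acid genes at 8, 24 and 48 h, then 0, 0 and 5 members between times from 8 h on, 2 over time and 0 in control livers.

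The deviations of equally numbered arrays correlated between -0.04 and 0.29, not all above 0.1, so the numbers were not taken to pair the samples. All replicate 3 arrays were scanned on one day and all others on another. With the replicate block 15 synthetases were called at 48 h, when 18.6% of all genes rose and 14.7% fell, and 5 members differed in control livers. At 8 h the numbers differ from other times, and replicate 2 occurs on a single array, which has its own term in that block. The 8 h values then rest on the replicate 3 array, so the block is not a check apart from leaving out replicate 2. The 8 h median was then -0.06 for synthetases and 0.24 for amino acid genes.

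Leaving out 1 array gave 0 to 3 synthetases at 3 h, 0 to 4 at 8 h, 2 to 4 at 24 h, 4 to 14 at 48 h and 0 at 72 h. For amino acid genes it gave 1 to 3, 0 to 8, 2 to 5, 4 to 9 and 0. The lowest counts came without an array of the same time: replicate 1 at 3 h, replicate 2 at 8 h and replicate 3 at 24 and 48 h, with 2 exceptions. At 3 h the amino acid genes numbered 1 without either array, and at 24 h the synthetases numbered 2 also without either 72 h array. Members differing numbered 0 to 1 from 3 to 8 h, 2 to 6, 1 to 9 and 2 to 10 in the later comparisons, 7 to 13 over time, 0 to 2 in control livers and 10 to 16 in treated livers. Of 45 called values, 43 kept their call with scan day as a block, 12 with slide as a block and 10 under median centring. Only 3 kept it in every alternative of processing or block that tested them. Each time held an array of each scan day, so that block changes the spread and hardly the ratios. Psat1 at 72 h, Slc7a11 and Aldh18a1 were limited by signal near background.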

Other observations

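Of 11 genes driven by NRF2, the regulator of antioxidant defence, 2, 7, 7 and 8 rose in order from 3 to 48 h, and 1 fell, Me1 at 24 h (-0.89 ± 0.14). Gclc, which makes the glutathione precursor, stood at 3.31 ± 0.27, the haem oxygenase gene Hmox1 at 3.16 ± 0.19 and Osgin1 at 3.09 ± 0.28, all at 8 h. Of 13 genes of DNA replication 9 rose and 1 fell at 48 h, when 17.9% of all genes rose and 13.4% fell. It was also the time at which 11 of 20 synthetases rose, and a link between these rises was not tested. Cdt1 (1.40 ± 0.22), Mcm6 (1.24 ± 0.20) and Mcm3 (1.11 ± 0.18) rose most, while the thymidine kinase gene Tk1 fell (-1.44 ± 0.22), and Rrm1 fell at 8 h (-0.31 ± 0.08).

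Of 12 interferon gamma response genes, 3, 3, 1 and 3 fell in order from 3 to 48 h, and 1 rose at each of the 3 later times, the chemokine gene Cxcl10 (4.70 ± 0.26 at 8 h). Igtp at 8 h (-1.24 ± 0.25), Irgm1 at 3 h (-1.04 ± 0.14) and Cxcl9 at 48 h (-1.03 ± 0.25) had the largest falls called.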
